A study of Homo sapiens with 4 samples.

Results

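Laminins, collagen IV, the proteins that link them and the integrins that bind them form the set of genes described here, in cells of A549, an established human lung adenocarcinoma line. Members were taken by symbol: laminin chains (LAMA, LAMB and LAMC), COL4A1 to COL4A6, NID1, NID2, HSPG2, AGRN, DAG1, COL7A1, COL17A1 and the numbered integrin α and β genes without ITGB6 and ITGB8. Described here are 41 genes of the 26255 in the deposited table, namely 11 laminin, 6 collagen IV, 5 linker or dystroglycan, 2 anchoring collagen, 11 integrin α and 6 integrin β genes. RNA was sequenced in 4 libraries. The solid tumor and the acinar tumor libraries hold tumor cells cut by laser microdissection from areas of these histologies in A549 xenografts in immunodeficient mice. The single culture and the mix culture hold GFP-labelled A549 cells sorted from 3D colonies, the single culture grown without cancer-associated fibroblasts (CAFs) and the mix culture read as the one grown with them. Each group is 1 library. How many tumors, mice or dishes went into a library, and where the CAFs came from, was not stated in the labels.

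Values are scaled counts: the authors' normalised fragment count per gene divided by a constant that is the same for all libraries. Longer genes yield more fragments, so one gene is set against another only on values per kilobase (kb) of transcript. Estimated depth ran from 6630000 fragments in the acinar tumor to 12180000 in the mix culture, and 3 fragments, taken as the limit of detection, were worth 0.242 to 0.465 scaled counts. Epithelial keratins and A549 enzymes were present in all libraries, the 8 listed markers summing to between 15274 and 20040 scaled counts. The 11 endothelial markers summed to between 1.53 and 2.38 and the 10 muscle, nerve and fat markers to between 1.21 and 3.81. Leukocyte and platelet markers summed to 238 and 146 in the solid and acinar tumor, mostly CD68 and LYZ. In the single and mix culture they summed to 49.1 and 42.8, mostly CD68 and CD14. CD68 and LYZ were higher in both tumors. CD14 went the other way, at 9.65 and 2.64 in the solid and acinar tumor and 15.4 and 13.4 in the single and mix culture. PTPRC, the leukocyte-defining surface gene, was at 1.40 or less, and the macrophage gene AIF1 was at 0 in every library. The 12 fibroblast markers summed to 59.9 and 96.1 in the solid and acinar tumor and to 44.9 and 47.2 in the single and mix culture. Of these, 7 reached 1 in any library and did not move together. In the order solid, acinar, single and mix, COL1A1 was at 32.3, 30.7, 19.3 and 29.5, LUM at 19.6, 55.4, 0 and 0.0805, and ACTA2 at 5.80, 7.27, 21.4 and 13.3. THY1 and PDGFRA were at 0 in both tumors and at most 2.01 in the cultures, and DCN and COL1A2 were at 0.280 or less everywhere. Host cells of a xenograft are mouse cells, and how much of their RNA was counted under human symbols was not tested. Fewer cells of a type and less RNA per cell cannot be told apart in bulk libraries.

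A basement membrane is the thin matrix sheet under an epithelium. Laminins, heterotrimers of an α, a β and a γ chain, and collagen IV, heterotrimers drawn from 6 α chains, each form a network, and nidogens and heparan sulfate proteoglycans tie the networks together. Cells hold on to laminin through integrins, which are α-β heterodimers, and through dystroglycan. In hemidesmosomes, the firm anchors of squamous and basal epithelia, integrin α6β4 and collagen XVII bind a laminin that holds the α3 and β3 chains and that collagen VII fibrils tether to the stroma. Alveolar and kidney basement membranes are known for collagen IV α3α4α5, most others for α1 and α2 chains.

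The largest differences lay between the tumors and the cultures. In the laminin β, collagen IV, nidogen and integrin β families, the RNA shares of the chains differed between these settings. LAMA5 and ITGA3 held the largest share of the laminin α and integrin α members in all 4 libraries. A gene was counted when both tumor values lay at least 2-fold from both culture values after 1 scaled count was added to each. Of 37 genes at 1 scaled count or more in any library, 5 were higher in both tumors (COL4A3, COL4A4, LAMB3, COL17A1 and NID2) and 11 were higher in both cultures (COL4A1, COL4A2, COL4A5, COL4A6, LAMC1, LAMA2, NID1, ITGB1, ITGB3, ITGA2 and ITGA4). These are 13.5% and 29.7% of the members, beside 9.67% and 8.22% of the 14561 genes measured in any library. Tumor and culture values did not overlap for 28 of the 37 members (75.7%), a share near that of all genes (78.5%). Growth in an animal or a dish, microdissection or sorting, and the libraries themselves cannot be told apart in this contrast, and with 1 library per group none of the differences has a replicate check.

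Differences within each setting were smaller. Among 31 members measured in the tumors, 4 were at least 2-fold higher in the acinar tumor (COL4A1, COL4A2, NID2 and COL7A1) and 2 at least 2-fold lower (ITGA10 and ITGB2). That is 12.9% and 6.45%, beside 1.98% and 2.55% of the 13979 genes measured there. The median log2 ratio, taken as log2((value + 1)/(value + 1)), was 0.23 over the members and 0.01 over all genes. Of the 31 members 21 lay above 0, beside 7098 of the 13979 genes. In the mix against the single culture, 0 of 37 members were at least 2-fold higher and 2 were at least 2-fold lower, ITGA10 and ITGA11. That is 5.41% lower, beside 0.682% of 13485 genes higher and 1.74% lower. The median log2 ratio was -0.19 over the members and 0.01 over all genes. Of the 37 members 26 lay below 0, beside 6474 of the 13485 genes. The remaining 4 members stayed under 1 scaled count in every library: ITGA8 and ITGA9 were listed at 0 throughout, and LAMA1 and LAMB4 reached at most 0.178 and 0.533.

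**Figure D1:**
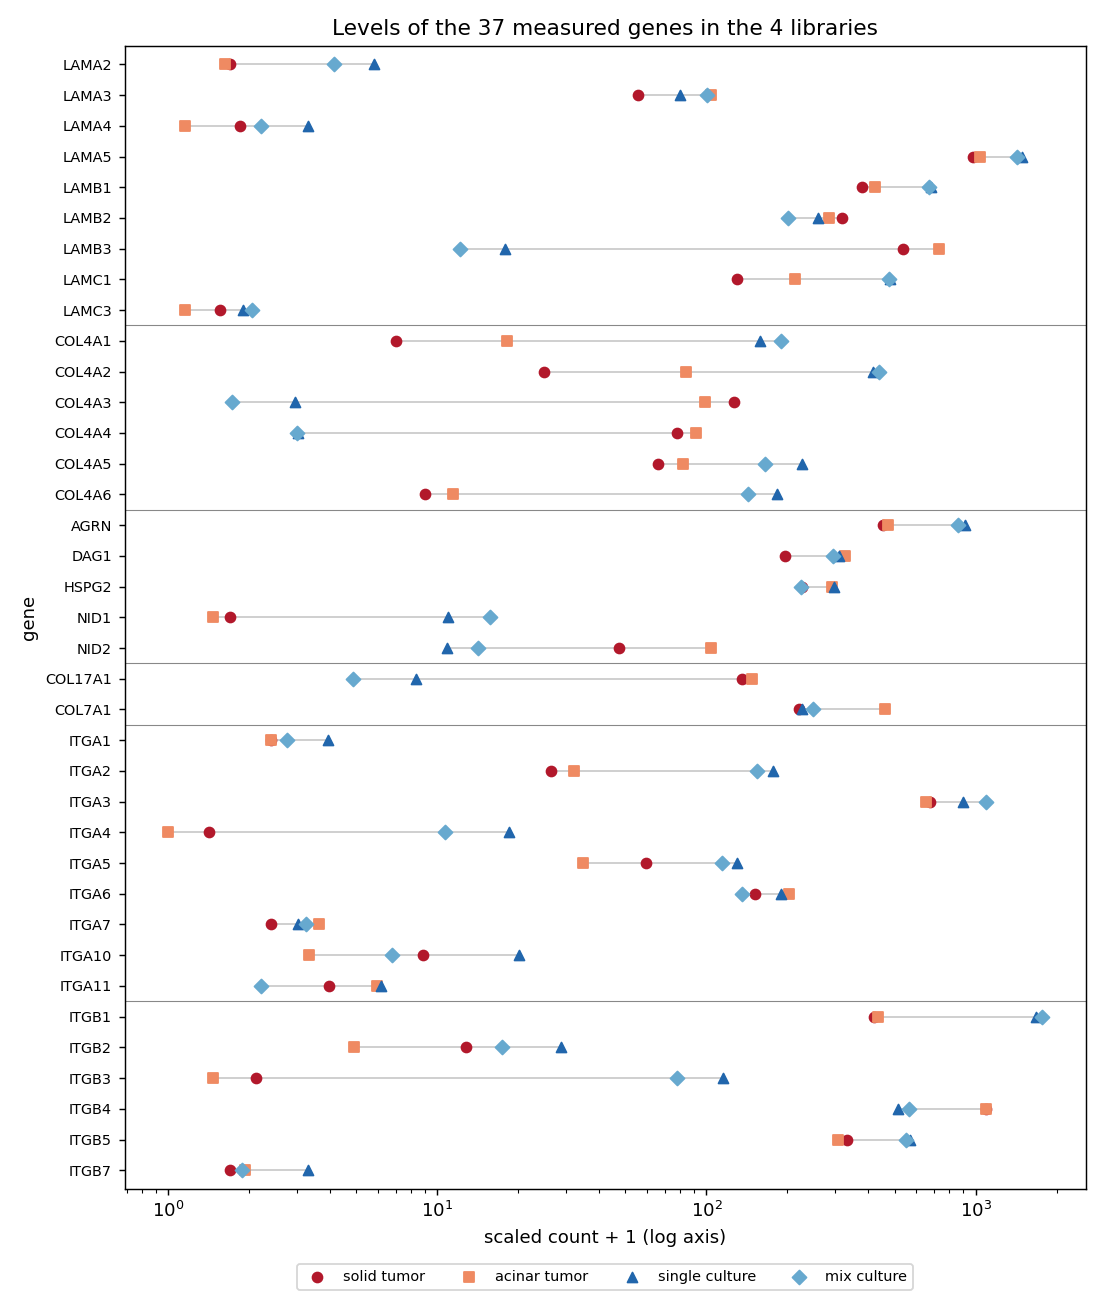
Scaled count plus 1 (log axis) of the 37 measured members in each library, 1 point per library, with a grey line over each gene's range. LAMB3, COL17A1, COL4A3 and COL4A4 have both tumor points far to the right of both culture points, while COL4A1, COL4A2, COL4A6, ITGB1 and ITGB3 show the reverse order.

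**Figure D2:**
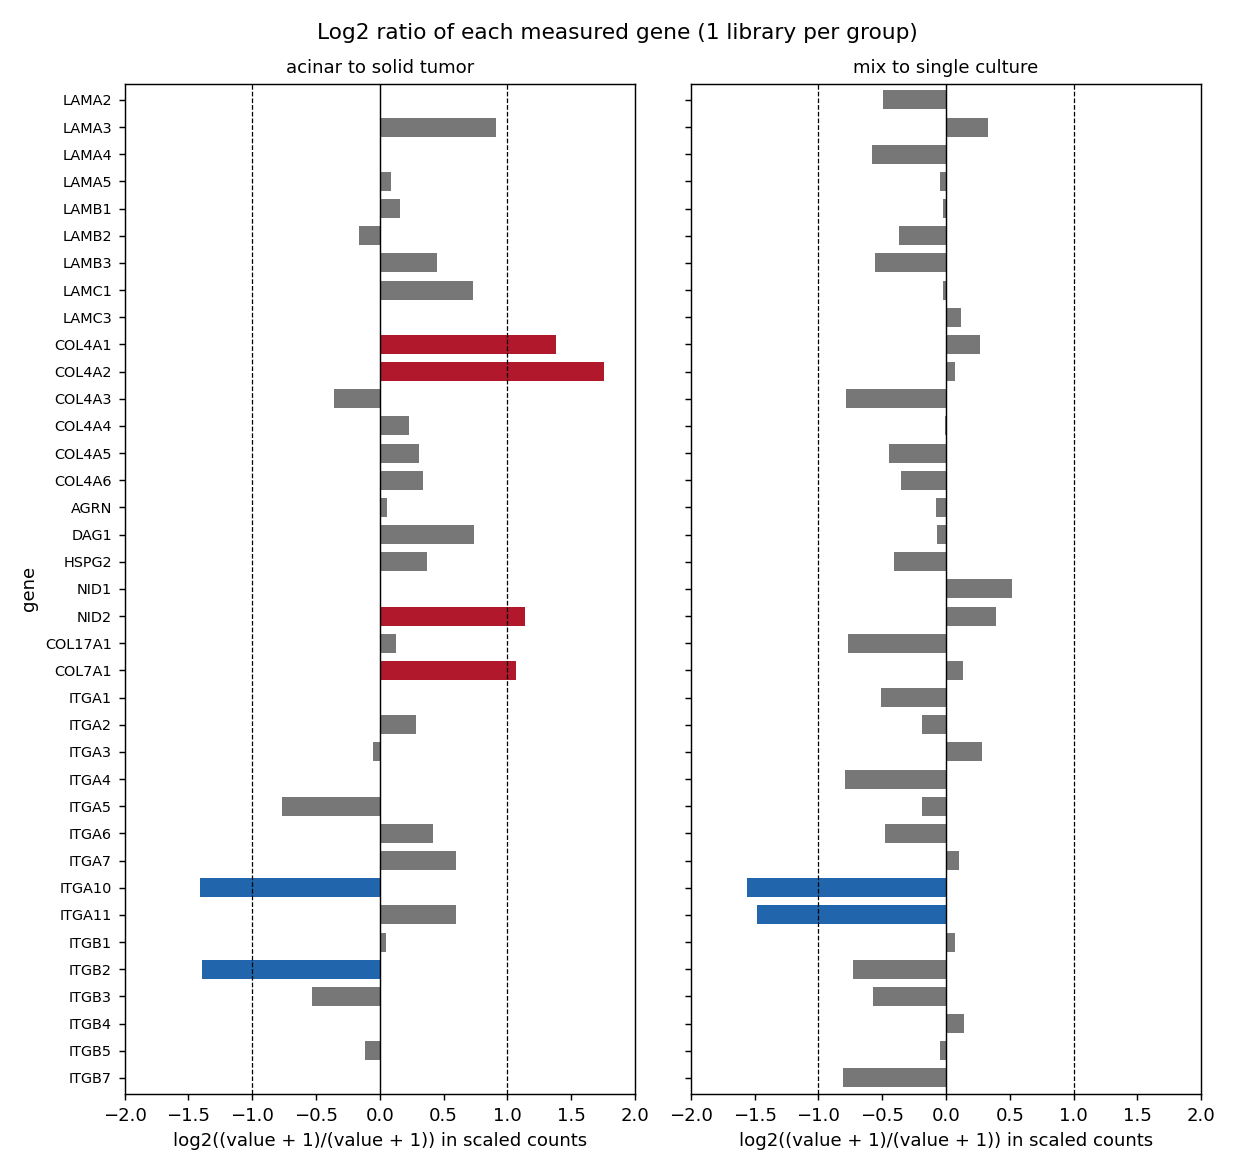
Log2 ratio of each measured member, acinar to solid tumor on the left and mix to single culture on the right, 1 library per group; dashed lines mark 2-fold, and red and blue bars lie past it. Where no bar is visible the ratio is near 0 or both libraries of the pair are under 1 scaled count. COL4A2 has the longest bar to the right at 1.76 in the tumors, and no bar passes 2-fold to the right in the cultures.

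Collagen IV genes sit as divergent pairs in the genome, each pair transcribed away from a short stretch between its starts. In the RefSeq annotation of GRCh38.p14 that stretch is 126 bases for COL4A1 and COL4A2, 418 for COL4A4 and COL4A3, and 379 for COL4A6 and COL4A5. Both genes of each pair lay on the same side between tumors and cultures, and any part of these stretches in that was not tested. The sequences below give the whole stretch between COL4A1 and COL4A2 (chr13:110307158-110307283, plus strand). For the other 2 pairs they give only a part of it. These are the 250 bases before the starts of COL4A3 (chr2:227164374-227164623, plus strand) and COL4A5 (chrX:108439588-108439837, plus strand). COL4A6 has 2 starts listed, and the first was used. Capitals mark 2 motifs searched on both strands, the CCAAT box (CCAAT) and the GC box (GGGCGG).
COL4A1-COL4A2: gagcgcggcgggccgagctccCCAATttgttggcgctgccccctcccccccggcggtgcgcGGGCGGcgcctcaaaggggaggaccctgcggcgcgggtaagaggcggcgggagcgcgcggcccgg
COL4A3: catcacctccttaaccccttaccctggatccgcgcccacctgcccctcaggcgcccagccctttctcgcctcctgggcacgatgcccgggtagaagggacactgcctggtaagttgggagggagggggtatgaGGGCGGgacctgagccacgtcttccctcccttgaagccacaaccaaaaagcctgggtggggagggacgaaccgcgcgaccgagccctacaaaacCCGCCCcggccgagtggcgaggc
COL4A5: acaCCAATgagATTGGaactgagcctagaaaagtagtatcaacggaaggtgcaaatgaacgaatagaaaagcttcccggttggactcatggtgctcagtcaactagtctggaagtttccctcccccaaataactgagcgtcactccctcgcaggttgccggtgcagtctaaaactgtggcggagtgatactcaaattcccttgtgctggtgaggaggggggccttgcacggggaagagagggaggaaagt
The COL4A1-COL4A2 stretch held 1 of each, the COL4A3 window 2 GC boxes and the COL4A5 window 2 CCAAT boxes. Over the 35116 promoter windows of 250 bases in the RefSeq table, 32.0% held a CCAAT box and 42.6% a GC box, so the motifs are common and their presence is a description only.

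COL4A1, encoding the α1 chain, stood at 6.01 scaled counts in the solid and 17.2 in the acinar tumor, against 157 and 189 in the single and mix culture. Its partner COL4A2, the α2 chain, followed at 23.8, 83.1, 416 and 437 in the same order. For both genes the solid tumor was lowest, the acinar tumor next and the cultures far above. The nearest culture-to-tumor fold was 9.10 for COL4A1 (95% counting interval 7.51 to 11.1) and 5.01 for COL4A2, whose fragments were not whole in every library, so it has no interval. In the acinar against the solid tumor COL4A1 was 2.86-fold higher (2.0 to 4.17) and COL4A2 3.49-fold. In the mix against the single culture, COL4A1 was 1.20-fold higher (1.13 to 1.28) and COL4A2 1.05-fold.

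The α3 and α4 chain genes had the opposite order. COL4A3 was at 126 scaled counts in the solid and 98.0 in the acinar tumor, against 1.96 and 0.725 in the single and mix culture, the last being 9 fragments. COL4A4 was at 76.9 and 90.1 in the tumors and at 2.04 and 2.01 in the cultures. The nearest tumor-to-culture fold was 50.1 for COL4A3 (32.8 to 80.5) and 37.6 for COL4A4 (24.8 to 59.9). Between the 2 tumors the partners went in different directions by little, COL4A3 being 1.29-fold lower (1.16 to 1.43) and COL4A4 1.17-fold higher (1.04 to 1.32) in the acinar tumor.

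The α5 and α6 pair, also higher in both cultures, differed in size. COL4A6 was at 7.97 and 10.4 scaled counts in the solid and acinar tumor and at 182 and 142 in the single and mix culture, a nearest fold of 13.7 (10.7 to 17.8). COL4A5, which is needed for both the α3α4α5 and the α5α6 heterotrimers, was at 65.3, 80.9, 225 and 164, a nearest fold of 2.03 (1.84 to 2.24). Per kb of transcript, COL4A5 exceeded COL4A6 8.53-fold and 8.11-fold in the tumors but 1.28-fold and 1.20-fold in the cultures. Both were lower in the mix than in the single culture, COL4A5 by 1.37-fold (1.29 to 1.45) and COL4A6 by 1.28-fold (1.20 to 1.37).

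Shares within a library do not depend on the scaling between libraries. Of the summed collagen IV level per kb, COL4A3 and COL4A4 made 59.5% and 41.8% in the solid and acinar tumor but 0.297% and 0.204% in the single and mix culture. COL4A1 and COL4A2 made 11.7%, 30.5%, 58.6% and 67.2% in the same order, and COL4A5 and COL4A6 28.8%, 27.8%, 41.1% and 32.6%. The acinar tumor thus lay between the solid tumor and the cultures in the share of both the α1α2 and the α3α4 pair. Within the first pair COL4A2 exceeded COL4A1 per kb in every library, 4.03-fold and 4.92-fold in the solid and acinar tumor and 2.71-fold and 2.36-fold in the single and mix culture.

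**Figure D3:**
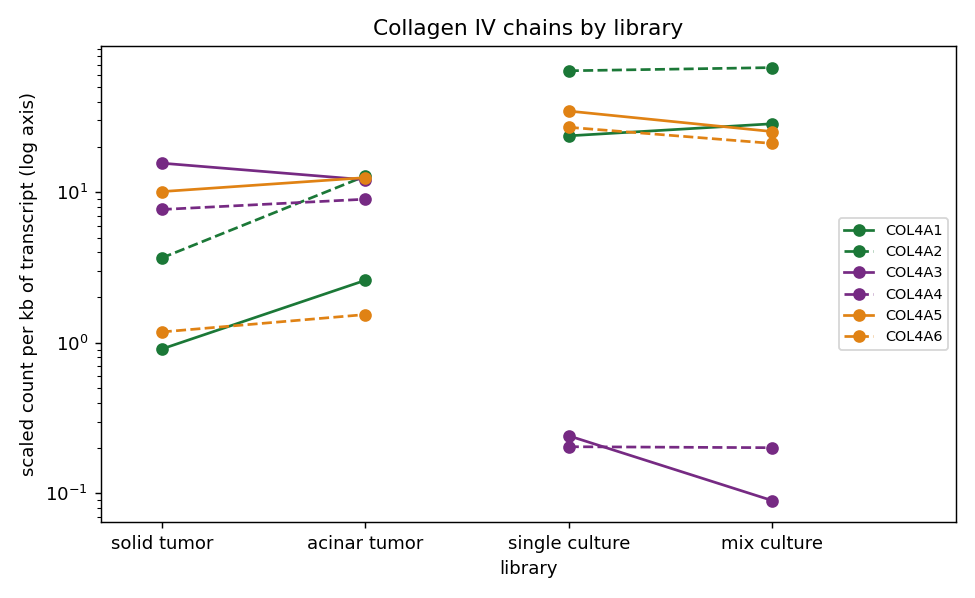
Scaled count per kb of the longest coding transcript (log axis) for the 6 collagen IV genes, 1 point per library, 1 color per divergent pair, with solid and dashed lines for its 2 genes joining the libraries of a setting. The COL4A3 and COL4A4 points lie below 1 in the cultures and near or above 8 in the tumors, and the COL4A1 and COL4A2 points lie higher in the cultures than in the tumors.

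Among the laminin β chain genes, LAMB3 was past 2-fold between the settings. LAMB3, the β3 chain of the hemidesmosomal laminin, was at 537 and 733 scaled counts in the solid and acinar tumor and at 16.9 and 11.1 in the single and mix culture. Both tumors lay far above both cultures, with a nearest fold of 31.8 (27.5 to 37.0). LAMA3, the α3 chain of the same laminin, overlapped between the settings at 54.7, 103, 78.7 and 99.1. The α3 gene thus showed no gap between the settings where LAMB3 did. LAMA3 has a long and a short form that gene-level counts do not separate.

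In the acinar against the solid tumor both genes were higher, LAMA3 by 1.89-fold (1.67 to 2.15) and LAMB3 by 1.36-fold (1.31 to 1.42). In the mix against the single culture LAMA3 was 1.26-fold higher (1.15 to 1.38), while LAMB3 was 1.52-fold lower (1.21 to 1.91). LAMA3 therefore had the same direction in both pairs and LAMB3 had opposite ones.

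The chains of the widespread epithelial laminin, α5 with β1 or β2 and γ1, were present in all libraries. LAMA5 was at 981 and 1041 scaled counts in the tumors and at 1482 and 1427 in the cultures, with fragments that were not whole in every library. LAMB1 was at 378, 423, 680.3 and 669, and LAMB2 at 319, 285, 259 and 200.4, in the order solid, acinar, single and mix. A pseudogene, LAMB2P1, is listed separately, and how fragments were divided between the copies is unknown. LAMC1, the common γ1 chain, was at 129 and 213 in the tumors and 481 and 476 in the cultures, a nearest fold of 2.23 (2.10 to 2.36), and it was 1.66-fold higher in the acinar than in the solid tumor (1.53 to 1.81). LAMB1 and LAMC1 did not differ beyond counting error between the cultures (folds 0.984, 0.953 to 1.01, and 0.988, 0.952 to 1.03).

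As shares of the laminin β level per kb, LAMB3 made 50.6% in the solid tumor (49.5% to 51.7%) and 57.9% in the acinar tumor (56.9% to 58.9%). In the single and mix culture it made 2.34% (2.02% to 2.69%) and 1.68% (1.41% to 1.98%), where LAMB1 made 70.4% and 75.4%. The α chain shares differed less between settings: LAMA5 made between 90.3% and 94.2% of the laminin α level in all 4 libraries, and LAMA3 was highest in the acinar tumor at 9.61% (8.93% to 10.3%). LAMA2 and LAMA4, α chains of muscle and vessel basement membranes, were low, at most 4.80 and 2.31 scaled counts, both in the single culture.

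**Figure D4:**
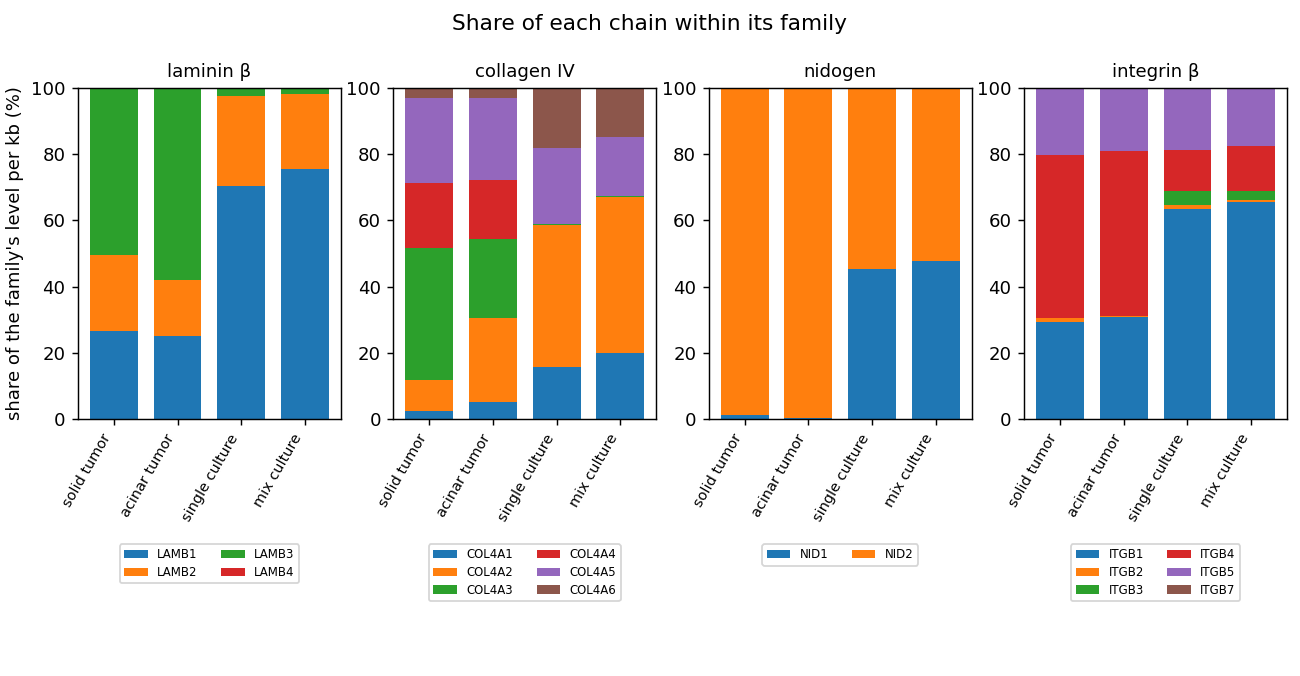
Share of each chain in the summed level per kb of its family (percent, stacked bars from 0 to 100), 1 bar per library. LAMB3, COL4A3 with COL4A4, NID2 and ITGB4 take larger shares in the 2 tumor bars, and LAMB1, COL4A1 with COL4A2, NID1 and ITGB1 in the 2 culture bars.

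Genes for the anchoring collagens split. COL17A1, the transmembrane collagen of hemidesmosomes, was at 134 and 147 scaled counts in the solid and acinar tumor and at 7.29 and 3.86 in the single and mix culture. Both tumors lay above both cultures with a nearest fold of 18.4 (14.7 to 23.3), and the mix culture was 1.89-fold below the single culture (1.30 to 2.75). COL7A1, which forms the anchoring fibrils, was at 219, 461, 226 and 247, so the acinar tumor stood above the other 3 libraries, 2.11-fold over the solid tumor (1.98 to 2.24). The 250 bases before the first listed RefSeq starts of LAMB3 (chr1:209652426-209652675, minus strand, 3 starts listed) and COL17A1 (chr10:104085881-104086130, minus strand), in GRCh38.p14, are given because, outside collagen IV and among members with a promoter in the table, these genes stood highest in the tumors relative to the cultures. Capitals again mark CCAAT and GC boxes.
LAMB3: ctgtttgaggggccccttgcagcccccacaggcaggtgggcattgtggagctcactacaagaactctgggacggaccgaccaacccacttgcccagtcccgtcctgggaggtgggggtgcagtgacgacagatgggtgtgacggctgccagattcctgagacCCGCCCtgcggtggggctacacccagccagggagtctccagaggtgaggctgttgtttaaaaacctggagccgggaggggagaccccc
COL17A1: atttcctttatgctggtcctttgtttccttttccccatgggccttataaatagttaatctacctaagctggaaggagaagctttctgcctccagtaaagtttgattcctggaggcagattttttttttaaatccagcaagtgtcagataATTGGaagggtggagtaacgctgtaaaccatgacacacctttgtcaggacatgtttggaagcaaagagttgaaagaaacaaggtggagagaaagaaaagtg
The LAMB3 window held 1 GC box and the COL17A1 window 1 CCAAT box. The AP-1 motif (TGANTCA), also searched, was in neither window nor in the 3 collagen IV sequences above. It occurred in the first listed promoter of 1 of the 32 members with an entry and in 6.57% of all windows.

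Among the linkers, the 2 nidogen genes lay on opposite sides between settings. NID1, the nidogen of most basement membranes, was at 0.699 and 0.465 scaled counts in the solid and acinar tumor, which is 5 and 3 fragments, and at 9.95 and 14.7 in the single and mix culture. NID2 was at 46.1, 103, 9.87 and 13.2. NID1 was thus near the limit of detection in the tumors with a nearest culture-to-tumor fold of 14.2 (5.92 to 44.7), while NID2 was higher in the tumors by a nearest fold of 3.49 (2.89 to 4.24). NID2 made 98.8% and 99.6% of the nidogen level per kb in the tumors and 54.7% and 52.3% in the cultures, where the order of the 2 genes turns when coding length is used (47.3% and 45.0%). It was also 2.23-fold higher in the acinar than in the solid tumor (1.95 to 2.55), and both nidogens were higher in the mix than in the single culture, NID1 by 1.47-fold (1.16 to 1.88) and NID2 by 1.34-fold (1.05 to 1.72).

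The proteoglycan and dystroglycan genes varied less. AGRN, encoding agrin, was at 453 and 473 scaled counts in the tumors and 912 and 862 in the cultures, a nearest fold of 1.82 (1.75 to 1.90). HSPG2, encoding perlecan, overlapped between the settings at 226, 292, 298 and 224, with fragments that were not whole. DAG1, the gene of the laminin receptor dystroglycan, was lowest in the solid tumor at 194 against 325, 310.2 and 295, and 1.68-fold higher in the acinar tumor (1.56 to 1.79).

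Integrin β genes differed mainly between the settings. ITGB1, the partner of most laminin- and collagen-binding α subunits, was at 417 and 432 scaled counts in the solid and acinar tumor and at 1673 and 1762 in the single and mix culture, a nearest fold of 3.87 (3.72 to 4.03). ITGB4, which pairs with α6 in hemidesmosomes, went the other way at 1091, 1091, 513 and 567, a nearest fold of 1.92 (1.86 to 1.99). Per kb, ITGB4 made 49.2% and 49.7% of the summed level of the integrin β members in the tumors and 12.4% and 13.5% in the cultures, where ITGB1 made 63.4% and 65.4%. ITGB4 was level between the 2 tumors (fold 0.999, 0.967 to 1.03), and so was ITGB1 within counting error (1.04, 0.985 to 1.09). In the mix against the single culture ITGB4 was 1.11-fold higher (1.07 to 1.15).

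ITGB3, the β3 subunit of a vitronectin receptor with αv, was at 1.12 and 0.465 scaled counts in the tumors and at 114 and 76.6 in the cultures. This was the widest nearest fold of any member, 68.5 (34.6 to 159), and rested on 8 and 3 fragments in the tumors. ITGB5, another αv partner, was at 333, 307, 569.8 and 552 with a nearest fold of 1.66 (1.58 to 1.74). ITGB2, the leukocyte β2 subunit, was at 11.8, 3.88, 27.8 and 16.4 and 3.04-fold lower in the acinar than in the solid tumor. Its fragments were not whole in every library, and an antisense gene (ITGB2-AS1) overlaps it. The leukocyte list, mostly CD68 and LYZ, summed to 146 in the acinar against 238 in the solid tumor. Of its 5 markers measured there, 3 were lower in the acinar tumor and 2 higher, PTPRC (1.40 against 1.26) and PPBP (4.19 against 2.66). In the cultures, where ITGB2 was higher than in the tumors, the list summed to 49.1 and 42.8. The part of these in the ITGB2 difference between the tumors was not tested. ITGB7, the other leukocyte β gene, reached at most 2.31 scaled counts.

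ITGA3, a laminin receptor subunit with β1, was at 674, 651, 894 and 1089 scaled counts, and 1.22-fold higher in the mix than in the single culture (1.19 to 1.25). ITGA6, the partner of β4, overlapped between settings at 150.5, 202, 189 and 135, being 1.34-fold higher in the acinar tumor (1.24 to 1.46) and 1.40-fold lower in the mix culture (1.31 to 1.5). ITGA6 thus had opposite directions in the 2 pairs. ITGA2, a collagen receptor subunit, was at 25.5, 31.2, 175 and 153, a nearest culture-to-tumor fold of 4.92 (4.25 to 5.72). ITGA5, the fibronectin receptor subunit, was at 58.5, 33.8, 129 and 113, lower by 1.73-fold in the acinar than in the solid tumor (1.46 to 2.05).

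ITGA4, an α subunit best known from leukocytes, was at 0.420 scaled counts in the solid tumor, which is 3 fragments, at 0 in the acinar tumor, and at 17.5 and 9.70 in the cultures. Against the limit of 3 fragments in the acinar tumor, the single culture was at least 37.6-fold and the mix culture at least 20.9-fold higher. The collagen-binding subunits ITGA10 and ITGA11 were low and were the members that differed most between the cultures. ITGA10 was at 7.83, 2.33, 19.1 and 5.80, which is 3.37-fold lower in the acinar than in the solid tumor (1.88 to 6.41) and 3.30-fold lower in the mix than in the single culture (2.51 to 4.37). ITGA11, a fibroblast collagen receptor gene, was at 2.94, 4.96, 5.15 and 1.21, and 4.27-fold lower in the mix than in the single culture (2.39 to 8.11). The mix culture, read as the one grown with CAFs, thus had the lowest ITGA11 value of the 4 libraries. The fibroblast marker sum was 47.2 in the mix and 44.9 in the single culture. Within that sum COL1A1 was 1.53-fold higher in the mix culture (1.29 to 1.82) and ACTA2, whose fragments were not whole in every library, 1.61-fold lower. Their part in the ITGA11 difference was not tested. ITGA1 and ITGA7 stayed at or below 2.93 scaled counts.

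Across both pairs, COL4A1, LAMA3, NID2 and COL7A1 were higher in the acinar than in the solid tumor and also higher in the mix than in the single culture, with counting intervals that left out 1 in each pair. The sizes differed, at 1.89-fold to 2.86-fold in the tumors and 1.09-fold to 1.34-fold in the cultures. COL4A3, ITGA10 and ITGA5 were lower in both pairs by the same measure, as was LAMB2 (1.12-fold, 1.05 to 1.19, and 1.29-fold, 1.22 to 1.36). Opposite directions were found for LAMB3, ITGA6, COL4A5, DAG1 and COL17A1, all higher in the acinar tumor and lower in the mix culture. The interval barely left out 1 for COL17A1 in the tumors and for DAG1 in the cultures (1.05-fold lower, 1.01 to 1.10). The 2 pairs share no library, and the difference between them was not tested.

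Other genes of the same processes were taken from lists. Of 8 measured integrin family genes outside the set, ITGAV and ITGB6 were past 2-fold higher in the acinar tumor and 0 lower, beside 1.98% and 2.55% of all genes. ITGAV, the αv subunit, was at 241 and 496 scaled counts in the solid and acinar tumor and 196 and 189 in the single and mix culture, 2.06-fold higher in the acinar tumor. ITGB8, an αv partner, was at 41.7, 73.2, 2.58 and 1.61. ITGB6 was at 2.94, 7.13, 0.444 and 0.966, resting on 5 and 12 fragments in the single and mix culture. Among the subunits β3, β5, β6 and β8 only, β8 and β6 were higher in the tumors and β3 and β5 in the cultures. The myeloid subunit gene ITGAM was at 3.22, 4.03, 0.889 and 0.805. In the mix against the single culture 0 of 7 measured genes of this list passed 2-fold, beside 0.682% of all genes higher and 1.74% lower.

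Of 11 other basement membrane genes measured in the tumors, 3 were past 2-fold higher in the acinar tumor and 1 lower, beside 1.98% and 2.55% of all genes (median log2 ratio 0.39). COL15A1, a basement membrane zone collagen, was at 3.57 against 0.280 scaled counts, the latter being 2 fragments and under the limit of detection. FRAS1 was at 34.4 against 15.2 and the collagen IV cross-linking peroxidasin gene PXDN at 8.99 against 3.5, while the fibulin gene FBLN1 was at 11.2 against 27.4. In the mix culture 1 of 11 was past 2-fold higher, the calcium-binding matrix protein gene SMOC1 at 128 against 58.4, and 0 were lower, beside 0.682% and 1.74% of all genes. Between settings 3 of 13 were higher in both tumors and 4 in both cultures, beside 9.67% and 8.22% of all genes. TINAGL1 was at 68.9 and 105 in the tumors and 17.3 and 17.6 in the cultures. HMCN1, encoding hemicentin, rested on 1 fragment in each tumor against 11.0 and 9.18 scaled counts in the cultures. SPARC, a collagen-binding protein gene, was at 19.0, 18.5, 118 and 107, and the laminin α5 receptor gene BCAM at 45.0, 26.5, 247 and 242.

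Of 26 integrin adhesion adaptor genes, 1 was past 2-fold higher and 0 lower in the acinar tumor, beside 1.98% and 2.55% of all genes. Of the 26, 21 lay above 0, beside 7098 of 13979 genes. The median log2 ratio was 0.41, beside 0.01 over all genes. LIMS2, a scaffold gene of the integrin-linked kinase complex, was at 7.29 against 2.10 scaled counts. In the mix culture 20 of 25 lay above 0 (median 0.18), beside 7011 of 13485 genes with a median of 0.01. TNS1, a tensin gene, was past 2-fold higher at 52.7 against 24.7, as were 0.682% of all genes. Between settings LIMS2, TNS4 and CD151 were past 2-fold higher in both tumors and the talin gene TLN1 in both cultures, that is 3 and 1 of 26 beside 9.67% and 8.22% of all genes. TNS4 was at 488, 792, 53.1 and 96.6, and CD151, the tetraspanin partner of laminin-binding integrins, at 1276, 1666, 463 and 525. TLN1, whose product activates integrins, was at 253, 229.8, 658 and 694.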

How the data were processed

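RNA of A549 cells was sequenced in 4 libraries prepared with TruSeq chemistry, per the labels' protocols. Cuffdiff 2.2.1, TopHat2 2.0.13, SAMtools 1.0 and Bowtie2 2.2.3 appear in the submitters' processing notes without roles, with the build hg19. Gene models, filters and strandedness were not given in the sources used here. Per gene and library the authors deposited 1 signal value. Between 90.1% and 91.2% of nonzero values fell on multiples of 1 step per library (to within 0.05 of a fragment and the last digit's rounding), as fragment counts divided by a size factor would. All values were divided by 8.94, 1 constant for all libraries, and are called scaled counts.

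With 1 library per group no test and no count model was run. Ratios carry a pseudocount of 1, over genes at 1 or more in a library compared; printed folds are plain ratios. Their 95% intervals come from the conditional binomial of whole fragments (Clopper-Pearson, exact) and cover counting error only, for fragments without molecular identifiers. Shares per kb used the longest coding transcript of GENCODE v29, and the annotation's isoforms need not be those expressed. Intervals of shares were made the same way but on rounded fragments, also for genes such as LAMA5 whose fragments were not whole. Promoters are RefSeq's, by symbol. Members and lists were chosen with earlier results of these data known. Of the 42 genes the rule finds, 1 is not reported here, and all counts and figures leave it out. The others could all be named. Genes outside the set are those past 2-fold, up to 3 per list, comparison and direction, plus ITGAV. The markers given were chosen after their values were seen. Of 14 collagen processing symbols 11 matched, as did all symbols of the other lists. Analyses used Python 3.11.15, NumPy 2.4.6, pandas 2.3.3 and SciPy 1.17.1. In simulated fragments with counting error only, 200 genes with a mean of 5 or more scaled counts were made to differ 4-fold. All were recovered past 2-fold in each pair, and of the unchanged genes 22 in the tumors and 1 in the cultures passed as well. This checks the calculation only. It does not cover changes in lower genes or variation between libraries of a group.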

Additional observations from a re-analysis of the deposited data

How the results depend on the processing

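Counts of members past 2-fold were recomputed with pseudocounts of 0.1 and 5, no filter, a filter of 5 scaled counts, scaling by library total or upper quartile, and only genes with whole fragments. The number lower in the acinar tumor, 2, became 0 with a pseudocount of 5 and 1 with whole fragments only, where ITGB2 drops out. The number lower in the mix culture, 2, became 4 with a pseudocount of 0.1, which adds COL4A3 and ITGB7, and 1 with a pseudocount of 5, which removes ITGA11. The other 38 of 42 recomputed counts stayed within 1.5 times, and no member past 2-fold changed direction. With whole fragments only, COL4A2 and ITGA4 could not be counted. COL4A5 was no longer past 2-fold between settings with a pseudocount of 5 or upper-quartile scaling, nor LAMA2 with a pseudocount of 5 or a filter of 5. The median log2 ratio ranged from 0.11 to 0.23 in the tumors and from -0.21 to -0.08 in the cultures, where -0.08 came with the filter of 5 in place of -0.19. Over all genes, the 277 higher and 357 lower in the acinar tumor numbered 478 and 692 when 0.1 was the pseudocount and 114 and 101 when it was 5, and 203 were lower with a filter of 5. The 92 and 234 of the mix culture became 192 and 522, and 33 and 73; the 1408 higher and 1197 lower in the tumors became 864 and 774 with a pseudocount of 5. Per coding length, an alternative chosen after seeing the data, ITGB4 made 38.5% and 39.1% of the integrin β level in the tumors, still above ITGB1 at 33.5% and 35.3%, while NID2 made 47.3% and 45.0% of the nidogen level in the cultures and NID1 led at 52.7% and 55.0%. With coding length 33 shares moved beyond their counting interval and 21 did not. No paired analysis was possible because each group is 1 library. Genes of a few fragments, such as NID1 and ITGB3 in the tumors, are limited by depth.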

Other observations

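Collagen processing and dystroglycan genes add values not described above. Of 11 measured collagen processing genes, 0 were higher in both tumors and 3 were past 2-fold higher in both cultures, beside 9.67% and 8.22% of all genes. SERPINH1, the collagen chaperone gene, was at 89.4 and 80.5 scaled counts in the solid and acinar tumor and 264 and 251 in the single and mix culture. The lysyl hydroxylase genes PLOD2 and PLOD1 were at 274, 200.2, 815 and 843, and at 157, 126, 391 and 346. None passed 2-fold within either pair. Over all genes the shares were 1.98% higher and 2.55% lower in the acinar tumor, and 0.682% and 1.74% in the mix culture. In the acinar tumor 7 of the 11 lay below 0 (median -0.24), beside 6881 of 13979 genes (median 0.01).

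Of 15 measured dystroglycan complex and glycosylation genes, 0 were past 2-fold higher in both tumors and 2 were in both cultures, beside the same 9.67% and 8.22% of all genes. SGCD, the δ-sarcoglycan gene, was at 1.96 and 2.95 scaled counts in the tumors and 26.4 and 14.1 in the cultures. SNTB1, a syntrophin gene, had the same direction as ITGA10 in both pairs, at 10.5 and 4.19 in the solid and acinar tumor and 31.1 and 12 in the single and mix culture. ISPD, a gene of dystroglycan glycosylation, was at 3.26 in the acinar against 1.12 in the solid tumor, which is 21 and 8 fragments. GYLTL1B was at 0.979, 0.310, 4.35 and 3.78, resting on 7 and 2 fragments in the solid and acinar tumor. Of 14 genes measured in the tumors, 1 (ISPD) was past 2-fold higher in the acinar tumor and 1 (SNTB1) lower, beside 1.98% and 2.55% of all genes. In the mix culture 0 of 15 were higher and 1 (SNTB1) was lower, beside 0.682% and 1.74%.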
